A study of Mus musculus with 77 samples.

Results

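The 8 genes described here encode the core of MHC class I antigen presentation: the heavy chains H2-K1, H2-D1, H2-Q7 and H2-Q10, the shared light chain B2m, the peptide transporter subunits Tap1 and Tap2, and the loading chaperone Tapbp (tapasin). They were taken by name from the 25266 genes listed in the count files, and all 8 were among the 10696 genes with enough reads to be tested. The set was chosen from an earlier reading of these data in which H2-Q7 ribosome footprints were higher in Ireb2-/- livers at ZT5. Values of that comparison are therefore given as a description, without a test, and tests were kept to other mice or other contrasts. Some of these contrasts include the same Ireb2-/- mice and are no independent support.

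Class I molecules carry peptides from cytosolic proteins to the cell surface, where CD8 T cells and natural killer cells read them. A heavy chain folds with β2-microglobulin in the endoplasmic reticulum, tapasin holds it at the TAP transporter, and TAP pumps in peptides made by the proteasome. H2-K1 and H2-D1 are the classical, broadly expressed mouse heavy chains, H2-Q7 is a non-classical Qa-2 heavy chain, and H2-Q10 is a liver-rich heavy chain that is secreted. In the mouse the heavy chains, both Tap genes and Tapbp lie in the H-2 region of chromosome 17, whose alleles are inherited together as a haplotype, whereas B2m lies on chromosome 2. Interferons raise the transcription of most of these genes, mainly through NF-κB and interferon-response elements in their promoters and through IRF and NLRC5 factors.

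Livers were taken from 24 adult male mice, 3 in each of 8 groups, and each liver gave an RPF library (ribosome-protected fragments) and a total RNA library. The groups were Aco1-/- mice, which carry the Aco1tm1.1Mwh allele and lack IRP1, and their Aco1+/+ controls, and Ireb2-/- mice, which carry the Ireb2tm1.2Mwh allele and lack IRP2, and their Ireb2+/+ controls, each at ZT5 and ZT12, that is 5 and 12 h after lights on. Both alleles are whole-body deletions on a C57BL/6J background, all mice were fed normal chow ad libitum under a 12 h light and 12 h dark cycle, and the controls came from the same breedings as the knockouts. Mice of the 2 breedings are called the Aco1 line and the Ireb2 line below. The libraries of the lines carry separate ranges of library numbers, so the line, its breeding stock and its library series cannot be told apart. H-2 alleles were not analysed here, because a count against a single reference genome does not name a haplotype. In whole liver, fewer cells of a type and less RNA per cell cannot be told apart.

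The libraries matched their labels at the deleted genes: Aco1 RPF levels ran from 74.8 to 123.2 CPM in Aco1-/- livers against 347.1 to 591 CPM in their controls, and Ireb2 RPF levels from 32.5 to 41.2 CPM in Ireb2-/- livers against 62.3 to 81.4 CPM. CPM are coding-sequence (CDS) read counts scaled to the size of the library after upper-quartile normalisation, and they are compared between mice and not between genes, since CDS lengths were not used. Total CDS counts ran from 852293 to 3993492 per RNA library and from 2448915 to 13439600 per RPF library. The least covered members were H2-Q7, Tap1 and Tap2, whose lowest RNA libraries held 16, 15 and 18 CDS counts, so that their RNA and RPF/RNA values are the least precise. H2-Q7 has near-identical neighbours such as H2-Q6, and because the handling of reads that map to several genes is not given in the sources used here, its values are uncertain to that extent.

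The promoters show what the class I heavy chains share at the level of sequence. In a RefSeq table of mouse promoters (GRCm38.p6, 32851 windows, 250 bases before the start searched on both strands), windows were present for 7 members, and Tap2 was not among them. The NF-κB letters GGGGATTCC were found in 3 of the 7 and in 0.213% of all windows, and the class I interferon-response letters TTTCACTTC in 4 of the 7 and in 0.402%. The stretches below are written 5′ to 3′ on the coding strand of each gene, with these letters in capitals, and are shown because they let the 4 heavy chains be compared base by base. In B2m the capitals mark the core interferon-response pattern GAAANNGAAA, which 2.98% of windows held. The sites lay at chr17:34000429-34000458 on the minus strand for H2-K1, and on the plus strand at chr17:35262923-35262952 for H2-D1, chr17:35439021-35439050 for H2-Q7, chr17:35469913-35469942 for H2-Q10 and chr2:122147548-122147577 for B2m.
H2-K1: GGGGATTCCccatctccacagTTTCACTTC
H2-D1: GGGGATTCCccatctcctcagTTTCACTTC
H2-Q7: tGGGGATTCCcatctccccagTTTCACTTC
H2-Q10: gaggactccccatctccccagTTTCACTTC
B2m: GAAACTGAAAatgggaaagtccctttgtaa
All 4 heavy chains held TTTCACTTC, and H2-Q10 was the only one of them without GGGGATTCC. The shorter letters TGACG were present in 5 of 7 members and in 17.8% of all windows. None of these matches was tested as a binding site.

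The study asked how loss of either IRP changes liver gene expression at each timepoint, and the same 8 groups allow line, genotype and time to be set side by side for the class I genes. At ZT12, H2-K1 and H2-D1 RPF were higher in Ireb2-/- than in Aco1-/- livers, while no member passed in RNA. With both timepoints together H2-K1, H2-D1 and Tap1 also passed in RNA, but those tests include the Ireb2-/- mice at ZT5 on which the set was chosen. No member passed between the lines in controls, and the difference between these 2 line effects did not pass its own test at ZT12. No member passed the test between knockouts and their own controls in any of the 3 genotype comparisons that could be tested. Tap1 RNA was lower at ZT12 than at ZT5 in both lines with edgeR, where 14.4% of all genes passed in the Aco1 line and 8.28% in the Ireb2 line. The Tap1 call was lost in both lines with the first sequencing runs alone, and in the Ireb2 line also with TMM scaling and with DESeq2.

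**Figure D1:**
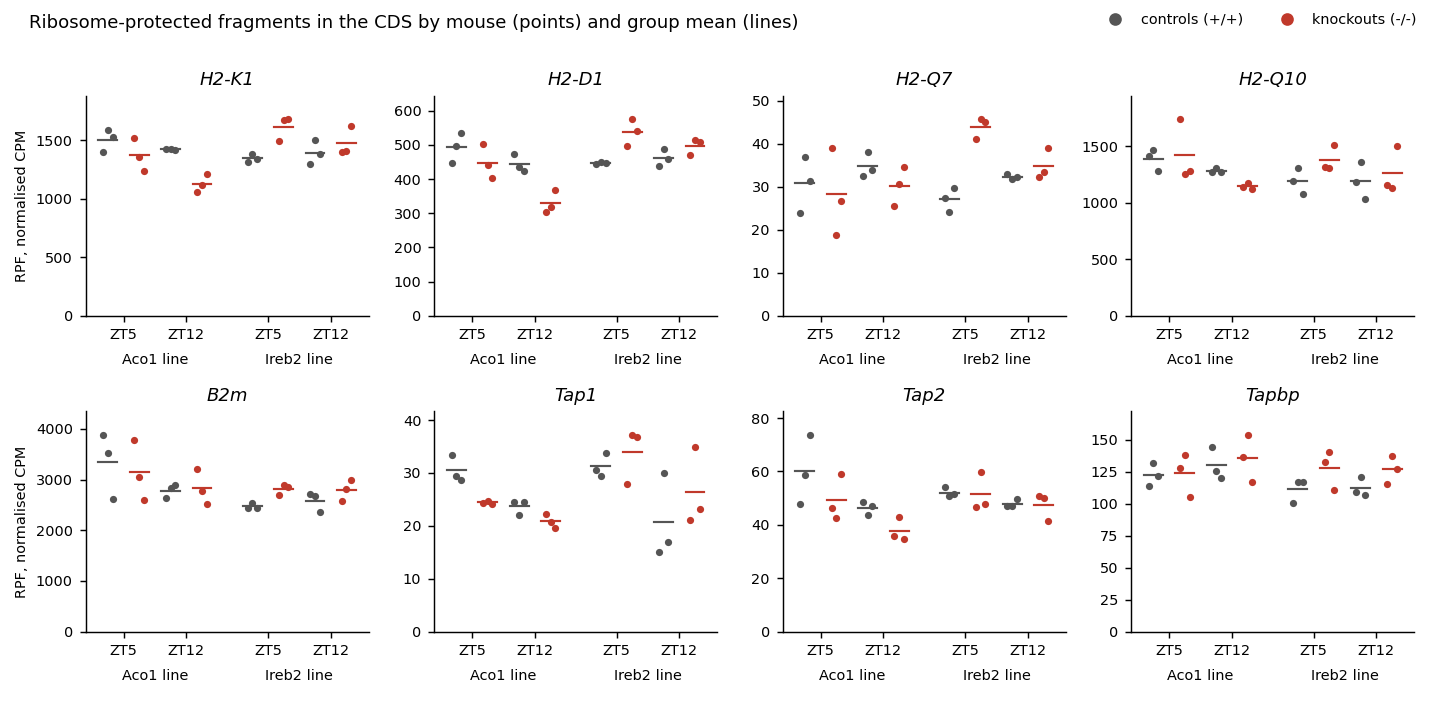
RPF levels of the 8 genes in normalised CPM (y axis, from 0, its own scale in each panel) for each of the 24 livers by line and timepoint (x axis), with controls in grey, knockouts in red and horizontal lines at the mean of 3 mice. The 3 Aco1-/- livers at ZT12 lie lowest for H2-D1, between 303 and 367 CPM, and H2-Q7 is highest in the 3 Ireb2-/- livers at ZT5, between 41.1 and 45.7 CPM.

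H2-K1 footprints at ZT12 stood at 1062, 1122 and 1211 CPM in the Aco1-/- livers and at 1404, 1408 and 1624 CPM in the Ireb2-/- livers. The controls of the same hour lay at 1419, 1427 and 1431 CPM in the Aco1 line and at 1299, 1383 and 1500 CPM in the Ireb2 line. All 3 Aco1-/- livers were thus below the other 9 livers of that hour, while the other 3 groups overlapped one another. These 3 livers stood apart from the other 9, above or below, for 6.52% of all genes. At ZT5 H2-K1 footprints were 1237, 1360 and 1519 CPM in Aco1-/-, 1497, 1678 and 1682 CPM in Ireb2-/-, 1404, 1533 and 1587 CPM in Aco1+/+ and 1313, 1338 and 1388 CPM in Ireb2+/+ livers. There the highest values, 1678 and 1682 CPM, were those of Ireb2-/- livers, while their lowest, 1497 CPM, lay within the range of the Aco1 line.

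H2-D1, the second classical heavy chain, had the same pattern. Its ZT12 footprints were 303, 319.5 and 367 CPM in Aco1-/- and 470.1, 508 and 513 CPM in Ireb2-/- livers. The controls had 423, 436 and 472 CPM in the Aco1 line and 437, 458 and 488 CPM in the Ireb2 line, so that the Aco1-/- livers were again separate from all others. At ZT5 the values were 402, 440.0 and 502 CPM in Aco1-/-, 497, 542 and 575 CPM in Ireb2-/-, 447, 497 and 534 CPM in Aco1+/+ and 443, 447 and 451 CPM in Ireb2+/+ livers. Across the 24 livers the RPF levels of H2-K1 and H2-D1 had a Pearson r of 0.94 (log2 scale), and of the 6320 genes with a mean of at least 10 RPF CPM each was the gene most like the other. This correlation is a description, and its points share libraries, lines and timepoints.

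RNA of the classical heavy chains did not follow the same order. H2-K1 RNA at ZT12 was 543, 594 and 683 CPM in Aco1-/- and 568, 647 and 666 CPM in Aco1+/+ livers, against 699.6, 727 and 933 CPM in Ireb2-/- and 700.4, 787 and 797 CPM in Ireb2+/+ livers. All 6 livers of the Ireb2 line were above all 6 of the Aco1 line at this hour, and the lines were separated in this way, in either direction, for 1.19% of all genes. H2-D1 RNA at ZT12 was 205, 247 and 262 CPM in Aco1-/- and 218, 241 and 254 CPM in Aco1+/+ livers. In the Ireb2 line it was 271, 287 and 348 CPM in knockouts and 284, 296 and 302 CPM in controls, and the lines again did not overlap, which made 2 of 8 members, although no member passed the edgeR test between lines in RNA at ZT12 in either genotype. At ZT5 H2-K1 RNA was 604, 672 and 740.2 CPM in Aco1-/- and 862, 862 and 945 CPM in Ireb2-/- livers. In the controls of that hour it was 772, 789 and 800.1 CPM in the Aco1 line and 733, 735 and 744 CPM in the Ireb2 line, so that the lines did not overlap in either genotype but stood in opposite order. Groups were separated for 16.5% of all genes in knockouts and 15.3% in controls there.

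**Figure D2:**
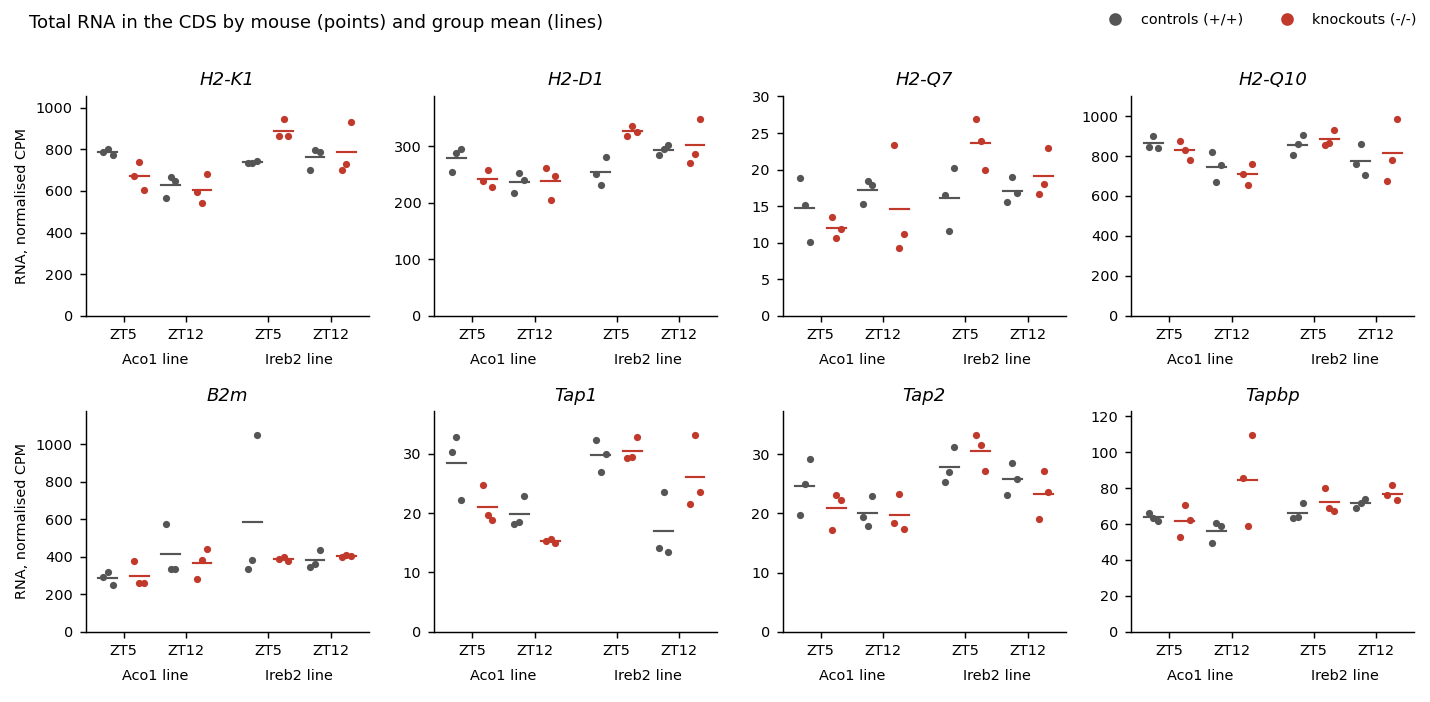
RNA levels of the 8 genes in normalised CPM (y axis, from 0, its own scale in each panel) for each of the 24 livers by line and timepoint (x axis), with controls in grey, knockouts in red and horizontal lines at the mean of 3 mice. At ZT12 all 6 livers of the Ireb2 line lie above all 6 of the Aco1 line for H2-K1 and H2-D1, and a single control liver of the Ireb2 line at ZT5 stands at 1050 CPM for B2m.

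Between the lines, differences were tested with edgeR over both timepoints, in controls and in knockouts separately. Knockouts of the lines also differ in the gene deleted, so line and deleted gene cannot be told apart among them. Among controls 0 of 8 members passed an adjusted p of 0.05 in RNA, RPF or RPF/RNA (0 by DESeq2 as well), against 0.243%, 0.374% and 3.33% of all genes tested. At an unadjusted p under 0.05, 1 member differed in RNA (Tap2), 1 in RPF (B2m) and 5 in RPF/RNA. An exact two-sided permutation of control mice between lines within each timepoint gave p = 0.005 for Tap2 RPF/RNA, the smallest that its 400 arrangements allow, and from 0.01 to 0.79 for the other member values, all unadjusted among 168 such tests of members. Among knockouts 4 of 8 members were higher in RNA in the Ireb2 line, against 0.935% of all genes called in either direction, and 2 of 8 in RPF, against 3.01%, and none was lower. The members' median log2 difference was 0.38 in RNA and 0.26 in RPF, against 0.00 and 0.01 over all genes. These counts include H2-Q7, on which the set was chosen, and the Ireb2-/- mice at ZT5 in which it was high, so that they are not independent of that choice.

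Tests of the knockouts over both timepoints include the Ireb2-/- mice at ZT5 and are no independent support for a difference. In them H2-K1 RNA was 0.39 ± 0.09 higher (log2, SE, adjusted p = 0.018) and H2-D1 RNA 0.39 ± 0.09 (adjusted p = 0.018). Tap1 RNA was 0.66 ± 0.15 higher (adjusted p = 0.0169). In RPF, H2-K1 was 0.31 ± 0.08 higher (adjusted p = 0.0192) and H2-D1 0.43 ± 0.08 (adjusted p = 0.00293), while Tap1 at 0.41 ± 0.14 (adjusted p = 0.103) did not pass. Both H2-K1 calls were lost when only the mice compared were fitted, and the Tap1 RNA call with the first sequencing runs alone. At ZT5 alone none of these calls held, with RPF differences of 0.24 ± 0.11 for H2-K1 (adjusted p = 0.354) and 0.26 ± 0.11 for H2-D1 (adjusted p = 0.318). H2-Q7 is given as a description, since the choice rested on it in some of these mice, and stood 0.79 ± 0.18 higher in RNA and 0.41 ± 0.13 in RPF.

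At ZT12 alone, which leaves out the mice the set was chosen on, H2-K1 RPF was 0.39 ± 0.11 higher (adjusted p = 0.0374) and H2-D1 RPF 0.59 ± 0.11 (adjusted p = 0.00354) in Ireb2-/- than in Aco1-/- livers, and 3.78% of all genes passed. In RNA at ZT12 no member passed with edgeR, against 0.103% of all genes. There H2-K1 stood at 0.37 ± 0.12 (adjusted p = 0.282), H2-D1 at 0.35 ± 0.13 (adjusted p = 0.327) and Tap1 at 0.77 ± 0.22 (adjusted p = 0.169), all with an unadjusted p under 0.05. H2-Q7 stood at 0.58 ± 0.27 in RNA (adjusted p = 0.482) and 0.21 ± 0.18 in RPF (adjusted p = 0.59) at this hour. Controls at ZT12 had RNA differences of 0.28 ± 0.12 for H2-K1 (adjusted p = 0.598) and 0.31 ± 0.12 for H2-D1 (adjusted p = 0.58), close to those in knockouts, and RPF differences of -0.03 ± 0.11 and 0.05 ± 0.11.

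Single livers mattered to the knockout contrast over both timepoints. The H2-D1 RPF call held without each of the 12 livers in turn, and that of H2-K1 in 9 of 12. It was lost without Aco1-/- ZT12 replicate 1, Ireb2-/- ZT12 replicate 3 or Ireb2-/- ZT5 replicate 2, each of which left 1 member called in RPF. The H2-K1 RNA call was lost without Ireb2-/- ZT12 replicate 3 or Ireb2-/- ZT5 replicate 2, that of H2-D1 without either of these or Aco1-/- ZT12 replicate 2, and that of Tap1 without Ireb2-/- ZT12 replicate 2. The H2-Q7 RNA difference, a description, lay between 0.66 and 0.94 in these fits. With reads of all transcript parts counted in place of the CDS it was 0.27. The calls at ZT12 alone were not refitted without single livers or under other settings.

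Within lines, no member passed between knockouts and controls in the 3 comparisons kept for testing, the Ireb2 line at ZT5 being described without a test. In the Aco1 line at ZT12, 0 of 8 passed in RNA, RPF or RPF/RNA with edgeR (0 with DESeq2 too), where 0.00935%, 0.299% and 0.0935% of all genes did. At an unadjusted p under 0.05 there were 1 in RNA (Tapbp), 2 in RPF and 2 in RPF/RNA (H2-K1 and H2-D1 in both). H2-D1 RPF was -0.43 ± 0.14 in knockouts against controls (adjusted p = 0.205) and H2-K1 RPF -0.33 ± 0.13 (adjusted p = 0.287), beside RNA differences of -0.00 ± 0.14 and -0.05 ± 0.14. In RPF, the knockout values of H2-K1, H2-D1, H2-Q10 and Tap2 were all below those of the controls, 4 of 8 members, and 20.4% of all genes had groups that did not overlap in this comparison. Between 3 and 3 mice an exact permutation test cannot go below p = 0.1.

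In the Aco1 line at ZT5, 0 of 8 members passed with edgeR or DESeq2, where 0% of all genes passed in RNA (399 at an unadjusted p under 0.05), 0.00935% in RPF and 0.00935% in RPF/RNA. Tap1 had the lowest unadjusted p there, at -0.47 ± 0.20 in RNA and -0.33 ± 0.15 in RPF, and was the 1 member whose RPF groups did not overlap, against 7.62% of all genes. In the Ireb2 line at ZT12, 0 of 8 passed with edgeR or DESeq2, against 0.0187% in RNA, 0.028% in RPF and 0% in RPF/RNA (381 genes at an unadjusted p under 0.05). The RPF log2 differences of the 8 members lay between -0.02 and 0.37, the groups overlapped for all of them, and 10.6% of all genes had groups that did not overlap. Tap1 RNA, at 0.53 ± 0.22, was the 1 member with an unadjusted p under 0.05.

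In the Ireb2 line at ZT5, the comparison on which the set was chosen, H2-Q7 RPF was 41.1, 45.0 and 45.7 CPM in knockouts and 24.2, 27.4 and 29.7 CPM in controls, a log2 difference of 0.70. Its RNA was 20.0, 23.95 and 26.9 CPM against 11.7, 16.6 and 20.2 CPM, a log2 difference of 0.53. H2-K1 and H2-D1 RPF were each 0.27 higher, and B2m RPF 0.19 higher, with no overlap between groups, so that 4 of 8 members were separated, beside 15.9% of all genes. At ZT12 the same line had H2-Q7 RPF of 32.2, 33.4 and 39.0 CPM in knockouts and 31.8, 32.3 and 32.9 CPM in controls, which overlapped. In the Aco1 line H2-Q7 RPF ranged from 18.9 to 39.1 CPM in the 6 knockouts and from 23.97 to 38.12 CPM in the 6 controls.

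Whether the effect of genotype differed between the lines was tested directly. At ZT12 0 of 8 members passed with edgeR or DESeq2, where 0% of all genes passed in RNA (534 at an unadjusted p under 0.05), 0.0841% in RPF and 0.0374% in RPF/RNA. The largest RPF differences of effects among members with an unadjusted p under 0.05 were 0.54 ± 0.16 for H2-D1 (adjusted p = 0.195) and 0.42 ± 0.15 for H2-K1 (adjusted p = 0.302), and in RNA Tap1 had 0.90 ± 0.30 (adjusted p = 0.95). An average over both timepoints was added after the data had been seen. It contains the comparison the set was chosen on and is no independent test. In it H2-D1 RPF had 0.47 ± 0.11 (adjusted p = 0.0968) and H2-K1 RPF 0.41 ± 0.11 (adjusted p = 0.141), with 0.112% of all genes passing in RPF and 0.00935% in RNA. No member passed there either.

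**Figure D3:**
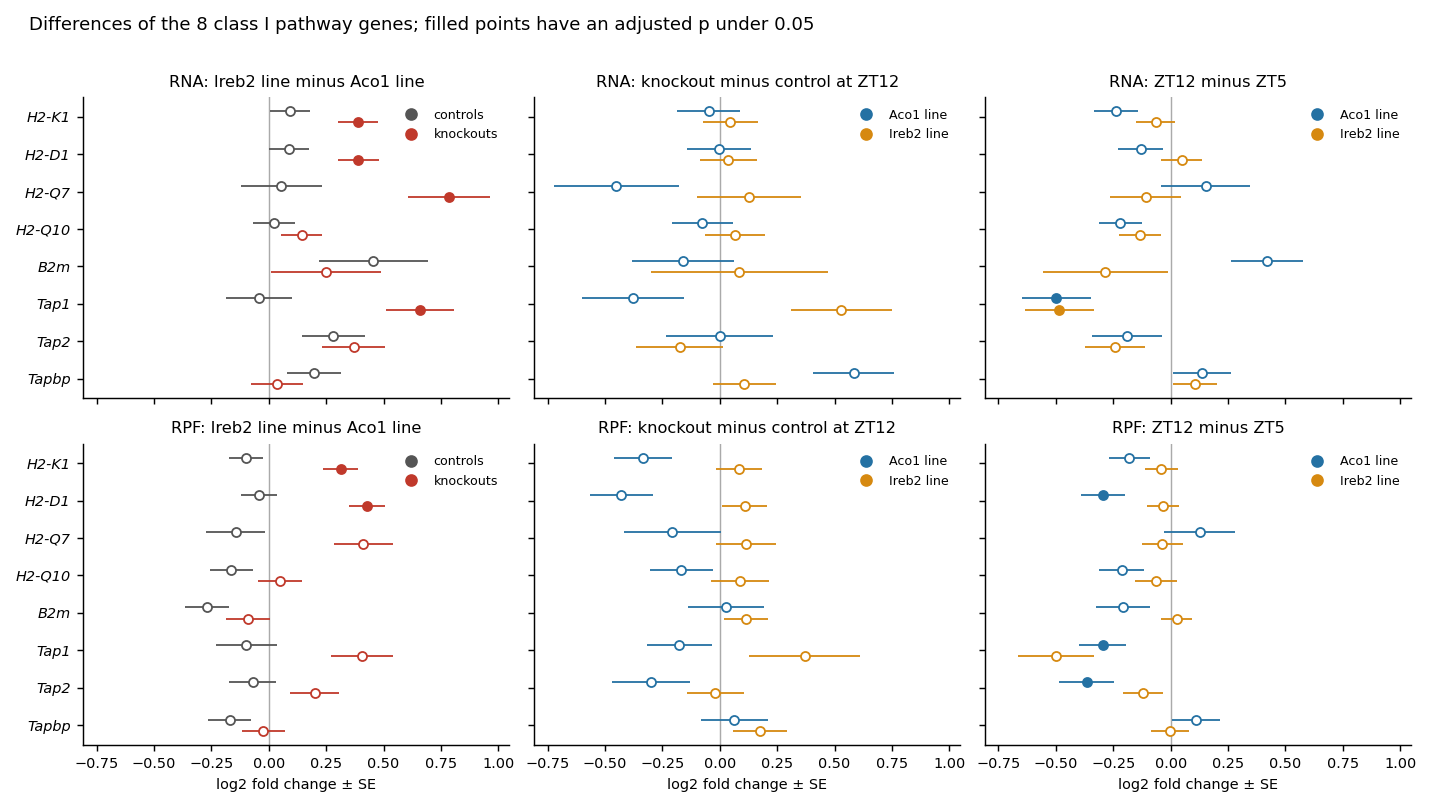
Log2 fold changes with SE (x axis) of the 8 genes (y axis) in RNA (upper row) and RPF (lower row) between lines, between genotypes at ZT12 and between timepoints, with colours for the 2 groups of mice named in each panel and filled points for an adjusted p under 0.05. In the line panels H2-K1, H2-D1, H2-Q7 and Tap1 are filled for knockouts in RNA and H2-K1 and H2-D1 in RPF, no control is filled, and no point is filled in the genotype panels. Knockout points of the line panels and Ireb2 line points of the time panels include the Ireb2-/- mice at ZT5.

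The share of the variation that went with each factor gives the same data as a description over all 24 livers. Line, with 1 degree of freedom, took 35% of the variation of log2 H2-K1 RNA, 37.2% for H2-D1, 37.3% for Tap2 and 23.9% for H2-Q7, against a median of 3.92% over all genes. Genotype within line, with 2 degrees of freedom, took 13.1% for H2-K1 and 16.2% for H2-D1 RNA, against a median of 5.50%. In RPF genotype within line took more than line: 41.2% for H2-K1 and 31.5% for H2-D1 (median 6.50%), against 10.9% and 20.7% (median 4.08%). For H2-Q7 RPF, on which the set was chosen, these shares were 28.6% and 7.29%. All of these shares include the Ireb2-/- mice at ZT5 and are no support for a genotype difference. Timepoint within line took 36.5% of H2-Q10 and 38.4% of Tap1 RNA variation (median 13.7%), while 53.2% for H2-Q10 lay between mice of the same group (median 59.3%). In RPF the share between mice of the same group was near or above its median of 53.5% for H2-Q10, B2m and Tapbp (59.5%, 55.0% and 65.1%), and lowest for H2-D1 (16.7%).

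With the 12 livers of ZT12 alone, an alternative added after the data had been seen, the shares for the classical heavy chains were as follows. Line took 59.8% of H2-K1 and 65.3% of H2-D1 RNA variation (median of all genes 7.20%), and genotype within line 1.121% and 0.283% (median 14.7%). In RPF, genotype within line took 52.8% for H2-K1 and 43.0% for H2-D1 (median 18.1%), and line 27.0% and 45.9% (median 8.34%). For Tap1 and Tapbp RNA, genotype within line took 48.4% and 47.6%.

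**Figure D4:**
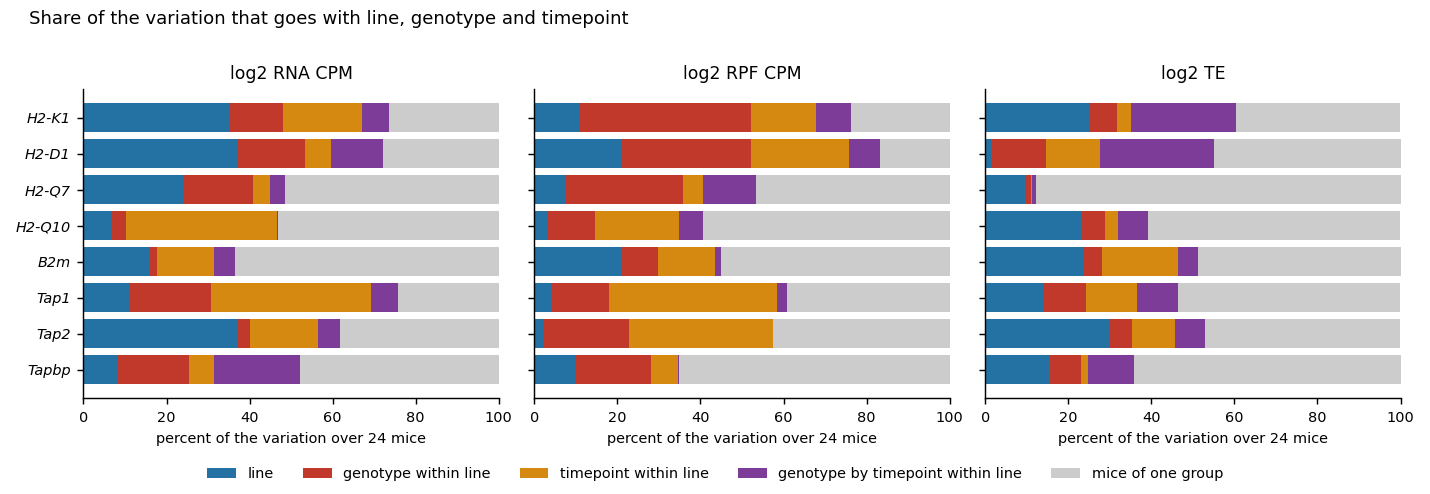
Percent of the variation over 24 livers (x axis, stacked bars adding to 100) that went with line, genotype within line, timepoint within line, their combination and mice of a single group, for log2 RNA, log2 RPF and log2 TE of the 8 genes (y axis). For H2-K1 the line bar is 35% in RNA and 10.9% in RPF, and the genotype bar 13.1% and 41.2%.

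H2-Q10, the secreted heavy chain, passed in no comparison between the lines. Its RNA ran from 656 to 984 CPM and its RPF from 1029 to 1738 CPM over the 24 livers. In knockouts the line difference was 0.14 ± 0.09 in RNA (adjusted p = 0.537) and 0.05 ± 0.09 in RPF (adjusted p = 0.859). Its RPF pattern was most like those of Smdt1, Romo1 and Ndufb8 (r = 0.91, 0.85 and 0.84), 3 genes of mitochondrial inner-membrane proteins, and its r with H2-K1 was 0.62. H2-Q7 was most like Pltp (r = 0.76), Acacb (0.69) and its neighbour H2-Q6 (0.66).

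B2m, the light chain, was not among the genes that were higher in the knockouts of the Ireb2 line. Its RPF ran from 2366 to 2712 CPM in the 6 Ireb2+/+ livers, from 2579 to 2987 CPM in the 6 Ireb2-/- livers, from 2612 to 3880 CPM in Aco1+/+ and from 2510 to 3774 CPM in Aco1-/- livers. The line difference in RPF was -0.27 ± 0.10 among controls (adjusted p = 0.143) and -0.09 ± 0.10 among knockouts (adjusted p = 0.7). Without Aco1+/+ ZT5 replicate 3 the difference among controls passed the test, the 1 such fit of 12. Over the 24 livers its RPF r with H2-K1 was 0.19 and with H2-D1 0.05, and the genes most like it were Wfdc21, Elp5 and Fxyd1 (r = 0.91, 0.90 and 0.88).

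B2m RNA in a single library stood apart, that of Ireb2+/+ ZT5 replicate 3, at 1050 CPM against 248 to 577 CPM (median 376) in the other 23. In that library 85.1% of B2m reads lay in the CDS (1819 counts, with 274 in the 3′ UTR), against 26.3% to 44.4% in the other 23. The CDS share of all its reads, 66.7%, was the highest of the RNA libraries, whose range was 48.3% to 66.7%. Its part in the RPF/RNA line difference among controls was measured by leaving it out: the difference went from -0.65 ± 0.25 (adjusted p = 0.193) to -0.38 (adjusted p = 0.381).

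Tap1, the first transporter subunit, was the member called between timepoints in RNA with edgeR. Its RNA in the Aco1 line fell from a mean of 24.8 ± 5.71 CPM at ZT5 to 17.6 ± 3.03 CPM at ZT12 (SD, n = 6 each), a log2 change of -0.50 ± 0.15 (edgeR adjusted p = 0.0213), and in the Ireb2 line from 30.2 ± 2.17 to 21.6 ± 7.28 CPM, -0.48 ± 0.15 (adjusted p = 0.0422). Its RPF fell by 0.30 ± 0.10 in the Aco1 line (adjusted p = 0.0446) and stood at -0.50 ± 0.16 in the Ireb2 line (adjusted p = 0.0514). Tap2 RPF fell by 0.37 ± 0.12 (adjusted p = 0.0365) and H2-D1 RPF by 0.29 ± 0.10 (adjusted p = 0.0338) in the Aco1 line. In that line 1 of 8 members passed in RNA (14.4% of all genes), 3 of 8 in RPF (22.2%) and 0 of 8 in RPF/RNA (0.374%). Tests in the Ireb2 line include the Ireb2-/- mice at ZT5 on which the set was chosen. There 1 of 8 members passed in RNA (8.28%), 0 of 8 in RPF (17.2%) and 0 of 8 in RPF/RNA (0.598%). At an unadjusted p under 0.05 there was 1 member, Tap1, in RPF and none in RPF/RNA. With 8 members these counts are no result particular to the class I genes, since the 3 calls in Aco1 line RPF became 1 with TMM scaling and 0 with DESeq2 or the first sequencing runs alone. They became 0 to 2 without single livers of the line. The Tap1 RNA call in the Aco1 line was lost without Aco1-/- ZT5 replicate 1, Aco1+/+ ZT12 replicate 2, Aco1+/+ ZT5 replicate 1 or Aco1+/+ ZT5 replicate 2, with log2 changes of -0.56 to -0.44 over the 12 fits that each left out a liver, and with the first runs alone, where B2m passed instead. In the Ireb2 line Tap1 RNA held in 4 of 12 such fits, those without Ireb2-/- ZT12 replicate 2, Ireb2+/+ ZT12 replicate 2, Ireb2+/+ ZT5 replicate 2 or Ireb2+/+ ZT5 replicate 3, with changes of -0.67 to -0.42. With DESeq2, Tap1 and B2m RNA passed in the Aco1 line, B2m also in RPF/RNA, and no member passed in the Ireb2 line or in Aco1 line RPF.

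In Tap1 RNA at ZT12 the 3 Aco1-/- livers had 15.0, 15.3 and 15.6 CPM and the 3 Ireb2-/- livers 21.6, 23.6 and 33.2 CPM. The controls had 18.1, 18.5 and 22.9 CPM in the Aco1 line and 13.5, 14.1 and 23.6 CPM in the Ireb2 line, so the order of genotypes was opposite in the 2 lines, with overlap in the Ireb2 line. At ZT5 the values were 18.9, 19.6 and 24.8 CPM in Aco1-/- and 29.3, 29.4 and 32.9 CPM in Ireb2-/-, and controls spanned 22.2 to 32.8 CPM. Its RPF pattern was most like those of Ifi47, an interferon-induced GTPase, Ptpn6 and Fbn1 (r = 0.84, 0.83 and 0.80). Tap2 RNA ran from 17.2 to 29.2 CPM in the Aco1 line and from 19.1 to 33.3 CPM in the Ireb2 line, and its line difference was 0.28 ± 0.14 among controls (adjusted p = 0.412) and 0.37 ± 0.14 among knockouts (adjusted p = 0.217).

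Tapbp, the tapasin gene, had RNA of 59.1, 85.5 and 109.7 CPM in Aco1-/- and 49.5, 58.8 and 60.6 CPM in Aco1+/+ livers at ZT12. The knockout values overlapped the controls at their low end, and the log2 difference of 0.58 ± 0.18 did not pass (adjusted p = 0.443). Without Aco1-/- ZT12 replicate 2 it was 0.81 and passed, as did RPF/RNA. Tapbp RPF in the same livers was 117, 137 and 154 CPM against 120.2, 125.3 and 144.6 CPM, and the groups overlapped.

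Ribosome footprints per RNA, the translation efficiency (TE, the log2 ratio of RPF to RNA CPM), placed B2m apart from the other 7. Its mean log2 TE was 2.92 ± 0.52 (SD, 24 livers), a ratio of 7.59 above that of 99.9% of all genes, whose median was 0.10. Tap2 (1.03), H2-Q7 (0.99), H2-K1 (0.95), Tapbp (0.85), H2-D1 (0.75) and H2-Q10 (0.66) followed, each above the median and within the spread of its neighbour in this order, and Tap1 (0.19 ± 0.19) lay near the middle of all genes. Among knockouts 0 of 8 members differed in TE between lines with edgeR or DESeq2, and none had an unadjusted p under 0.05, against 0.112% of all genes passing. Among controls the TE differences were -0.37 ± 0.14 for Tapbp, -0.34 ± 0.14 for Tap2 and -0.19 ± 0.07 for H2-K1, and none passed (adjusted p = 0.164, 0.179 and 0.125). In the Aco1 line at ZT12 the TE of H2-D1 was -0.42 ± 0.14 (adjusted p = 0.431) and that of H2-K1 -0.28 ± 0.12 (adjusted p = 0.655) in knockouts against controls.

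**Figure D5:**
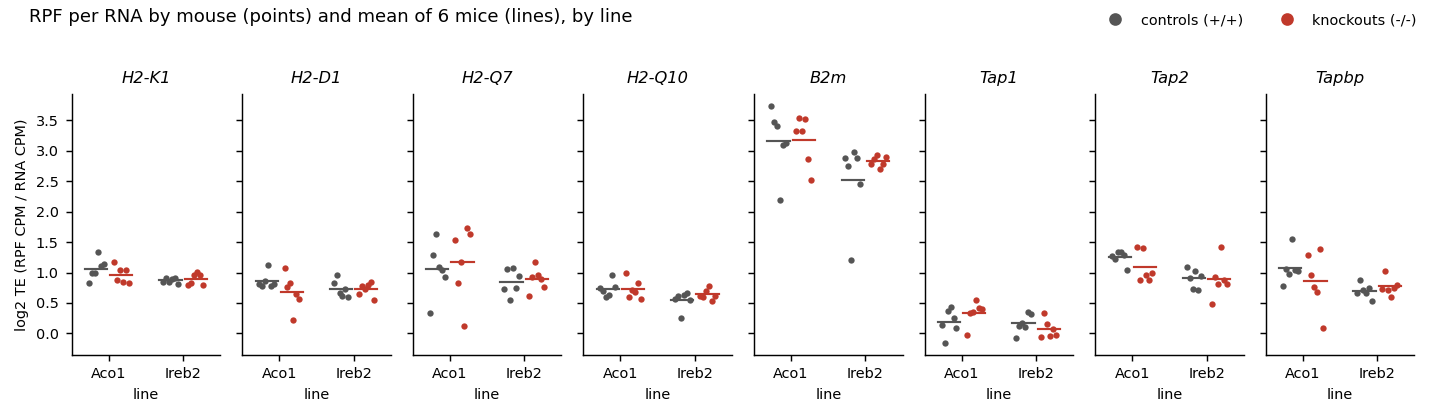
Log2 TE (y axis, RPF CPM over RNA CPM) of the 8 genes for each liver, by line (x axis), with controls in grey, knockouts in red and lines at the mean of 6 mice. B2m lies above the other 7 genes in all 24 livers, between 2.19 and 3.74 in 23 of them and at 1.21 in the library of Ireb2+/+ ZT5 replicate 3.

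Other genes of the pathway were read from lists that had been drawn up with earlier results of these data known. Of 10 genes for peptide supply and loading, Psmb8, an immunoproteasome subunit that lies between Tap1 and Tap2, was the 1 gene called in knockouts between lines, higher in the Ireb2 line by 0.63 ± 0.14 in RNA and 0.52 ± 0.09 in RPF. Beside this and the following knockout counts stand 0.935% of all genes called in RNA and 3.01% in RPF, and the contrast includes the Ireb2-/- mice at ZT5. At ZT12 alone Psmb8 (0.57 ± 0.13) and Psme1, a proteasome activator (0.41 ± 0.11), were higher in RPF, where 3.78% of all genes were called. Of 12 tested class I and class I-like genes other than the 8, H2-Q1 was higher in RNA (1.64 ± 0.41) and H2-Q6 in RPF (0.83 ± 0.19), and none passed among controls. Among 15 regulators of class I and interferon signalling, Irf1, an interferon-response transcription factor, was higher in RNA in the Ireb2 line among both knockouts (0.67 ± 0.17) and controls (0.72 ± 0.17). Among controls 0.243% of all genes were called in RNA. Of 15 interferon-induced genes, 1 was higher among knockouts, Gbp7 in RPF (0.59 ± 0.15), and 0 in RNA, and none passed among controls in RNA or RPF.

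The class II genes, which present peptides from the endocytic route, had larger median line differences than the class I members. Their H2 genes lie in the same H-2 region, whereas the listed Cd74 and Ciita lie elsewhere in the genome. Among knockouts 3 of 7 were higher in the Ireb2 line in RNA, H2-Aa by 1.09 ± 0.17, H2-Ab1 by 1.27 ± 0.18 and H2-Eb1 by 1.43 ± 0.25, and 4 of 7 in RPF, these 3 and their chaperone Cd74 by 0.90 ± 0.16 (0.935% and 3.01% of all genes were called). The median log2 difference of the 7 was 1.27 in RNA and 1.00 in RPF. Among controls H2-Ab1 was higher in RNA (0.85 ± 0.18), the 1 call of 7, with a median of 0.81 in RNA and 0.61 in RPF. Of all genes 0.243% were called among controls in RNA and 0.374% in RPF. Summed RNA of the 7 genes ran from 84.7 to 192 CPM in Aco1+/+ livers (median 109.1), from 92.9 to 128.5 CPM in Aco1-/- livers (106), from 111.5 to 271 CPM in Ireb2+/+ livers (208) and from 158 to 275.5 CPM in Ireb2-/- livers (244).

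Class II genes are markers of antigen-presenting cells, and the markers of immune cells were read beside them. Ptprc (CD45) was listed at 0 in all libraries. Of 9 T and NK cell markers 2 were in the files, with summed RNA of at most 3.02 CPM in any liver, of 5 B cell markers 3, at most 3.36 CPM, and of 5 dendritic cell markers 3, from 2.20 to 7.40 CPM in all groups. The 10 Kupffer cell and macrophage markers summed to 468 to 592 CPM of RNA in Aco1+/+, 503 to 679.9 CPM in Aco1-/-, 461 to 564 CPM in Ireb2+/+ and 399 to 699 CPM in Ireb2-/- livers, and 0 of 10 passed between lines. Endothelial (6), stellate cell (5) and cholangiocyte (4) markers likewise overlapped between groups. All 5 hepatocyte markers were present at high levels. Which cells carried the class I or class II differences was not tested.

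The H-2 region as a whole was read from the first to the last H2 gene or member annotated on chromosome 17, chr17:33919478-37483554 (GRCm38.p6). It holds 293 annotated genes, of which 86 were tested, 7 of them members. Among controls 1 of the 79 others differed between lines in RNA (H2-Ab1, 0.243% of all genes) and 0 in RPF (0.374%). Among knockouts, with the Ireb2-/- mice at ZT5 included, 5 of 79 differed in RNA (6.33%, against 0.935% of all genes) and 10 of 79 in RPF (12.7%, against 3.01%). The 5 called in RNA were all genes named above: H2-Ab1, H2-Aa, H2-Eb1, Psmb8 and H2-Q1. At ZT12 alone 0 of 79 differed in RNA (0.103% of all genes) and 9 of 79 in RPF (11.4%, against 3.78%). The RPF calls at ZT12 included genes of the region with no role in antigen presentation, such as Ddx39b, an RNA helicase gene next to H2-D1. The part of H-2 alleles in the line difference was not tested.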

How the data were processed

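Counts of 48 liver libraries (RPF and total RNA of 24 mice) were used as deposited. The authors trimmed adapters with cutadapt 3.5, filtered reads by quality and size, removed rRNA and tRNA reads with Bowtie2 and mapped the rest with STAR 2.70f to GRCm38 (Ensembl release 100). The counting tool, strand setting and handling of reads with several matches are not given in the sources used here. The deposited count tables have no header and 5 count columns, of which 1 held 0 throughout. The columns were read from their values as 5′ UTR, CDS and 3′ UTR, and another kind of count could not be named, so the CDS counts were used.

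Runs of one library were summed (77 runs). RNA and RPF were fitted separately with edgeR 4.0.16 (robust quasi-likelihood test, R 4.3.3) after upper-quartile scaling and filterByExpr (minimum count 10, total 15), and an adjusted p (Benjamini-Hochberg over the 10696 genes tested) of 0.05 was the threshold. SE are the absolute log2 fold change over the square root of F. TE was tested in one model of both library kinds with a term for each mouse. Genotype and time were fitted within a line (12 mice), and line and interaction contrasts over all 24 mice. Shares of variation and likeness used log2 CPM with a prior of 0.5 CPM. Single values were tested by exact permutation of mice (SciPy 1.17.1). The edgeR steps were tested on simulated counts. Alternatives were TMM scaling, DESeq2 1.42.0, other count filters, the first run alone, all count columns, a replicate block, only the mice compared, single timepoints, TE without pairing by mouse and leaving out each mouse. Named genes are the 8 members, up to 3 called genes a list by smallest p, the 3 genes most like 6 of the members in RPF, neighbours of a member, and Aco1 and Ireb2. In the class II list the 4 genes called in RPF were all named, which was decided after their values were seen. The members and lists were chosen with earlier results of these data known. Replicates are separate mice per the labels. Counting error sets the precision of the low counts.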

Additional observations from a re-analysis of the deposited data

Results flagged for a closer look

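A pair of H2-K1 RNA results is listed because, in each, the groups of both comparisons did not overlap and stood in opposite order. They were picked from a search of many pairs of effects for this pattern. How many such pairs would arise by chance was not tested. Groups of 3 mice often fail to overlap: control RNA at ZT5 was separated between the lines for 15.3% of all genes. At ZT5 the knockout minus control log2 difference of H2-K1 RNA was -0.23 in the Aco1 line and 0.27 in the Ireb2 line, 0.5026 apart. In controls the Ireb2 line minus Aco1 line difference of H2-K1 RNA was -0.09 at ZT5 and 0.28 at ZT12, 0.3758 apart. Neither difference between effects was tested as such. The Ireb2 line at ZT5 is the comparison on which the set of genes was chosen, and both results share its control mice. Groups held 3 mice, so no single mouse was tested for standing apart.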

How the results depend on the processing

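The 41 member values with an unadjusted p under 0.05 kept their direction under every alternative run; of their recomputed values and those of H2-Q7 RPF, 716 kept their side of the threshold or moved by less than the SE, 80 lost a call and 21 gained one. Of the other 151 member values, none of which passed, 74 changed sign under at least 1 alternative, 20 of them with other timepoints (among them H2-K1 RNA between lines in controls), and none was called in the other direction. Counts of members called that changed, other than on leaving out a mouse, were as follows. With DESeq2, time in the Aco1 line gave 2 in RNA (1 as reported), 0 in RPF (3) and 1 in TE (0), and time in the Ireb2 line 0 in RNA (1). With TMM, time gave 1 in RPF of the Aco1 line and 0 in RNA of the Ireb2 line, and with the first run alone 0 and 0. Without a filter, time in the Aco1 line gave 2 in RPF. With all count columns, time in the Aco1 line gave 1 in TE and line in controls 2 in TE (0). With only the mice compared, line gave 1 in TE among controls and, among knockouts, 3 in RNA (4) and 1 in RPF (2). With the first run alone line in knockouts gave 3 in RNA, and with all count columns 4, with Tap2 in place of H2-Q7. Among knockouts, ZT5 alone gave 0 in RNA (4) and 0 in RPF, and ZT12 alone 0 in RNA. The replicate block gave 1 member in RPF for time in the Ireb2 line (0 as reported, Tap1) and changed no other count. Whether the numbers pair knockouts with controls was not settled. The deviations of 24 same-numbered pairs had correlations of -0.09 to 0.33, 5 of them over 0.1. Among the 3 controls of each group, 12 of the 24 were best matched by their own number.

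Leaving out each mouse in turn gave 0 to 1 members in RNA and 0 to 1 in TE for the Aco1 line at ZT12, 0 to 2 in RNA and 0 to 2 in RPF for time in the Aco1 line, 0 to 1 in RNA and 0 to 1 in RPF for time in the Ireb2 line, 0 to 1 in RPF for line in controls, and 1 to 4 in RNA and 1 to 3 in RPF for line in knockouts. A separate fit of only the mice compared was not run for genotype at a single timepoint. The causes of these changes were not tested, beyond the fewer mice in such fits. Depth limits H2-Q7, Tap1 and Tap2, whose RNA counts were the lowest.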

Other observations

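Genes of the lists beside the 8 members also differed between ZT5 and ZT12, in a comparison in which 14.4% (RNA) and 22.2% (RPF) of all genes passed in the Aco1 line and 8.28% and 17.2% in the Ireb2 line. Ifi47, an interferon-induced GTPase, fell from ZT5 to ZT12 in the Aco1 line by 1.28 ± 0.15 in RNA and by 1.09 ± 0.12 in RPF (log2, SE), and in the Ireb2 line by 0.94 ± 0.25 in RPF, while its RNA there, at -0.72 ± 0.23, did not pass (edgeR adjusted p = 0.0791). Rfx5, a subunit of the RFX factor that binds class I and class II promoters, fell by 1.05 ± 0.26 in RNA and 0.88 ± 0.21 in RPF in the Aco1 line, and by 1.00 ± 0.26 and 0.78 ± 0.22 in the Ireb2 line. Rfxank, another subunit of that factor, fell by 1.01 ± 0.24 in RNA and 1.07 ± 0.22 in RPF in the Aco1 line and by 0.87 ± 0.18 in RPF in the Ireb2 line. Calr, a chaperone of heavy chain folding, fell in RNA and RPF of both lines, by 0.25 ± 0.07 to 0.87 ± 0.12. Erap1, which trims peptides in the endoplasmic reticulum, rose in the Aco1 line by 0.43 ± 0.10 in RNA and 0.42 ± 0.11 in RPF.

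Of the 7 class II genes 4 fell in RPF in the Aco1 line, H2-Aa by 0.72 ± 0.12, H2-Ab1 by 0.47 ± 0.15, H2-Eb1 by 0.57 ± 0.18 and H2-DMa by 0.83 ± 0.28, and 0 of 7 passed in the Ireb2 line, where their median was -0.22. Whether the time effect differed between the lines was not tested.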
